A study of Mus musculus with 9 samples.

Results

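Collagens are the structural proteins of the extracellular matrix, and their genes were followed here in stromal preparations of the mouse thymus before and after whole-body irradiation. A gene was taken as a member when a probe set of the array was annotated to its symbol alone and the symbol had the form of a collagen chain name, such as Col1a1. Each gene is represented by its probe set with the highest mean over the 9 arrays. The family then counted 42 genes, read by 82 probe sets, among 18193 genes with a single-symbol probe set. They fell into 11 fibrillar genes, 8 of basement membrane, 9 of the fibril-associated class (FACIT, collagens that sit on the surface of fibrils) and 14 of other kinds. Of 44 RefSeq genes that fit the name, the other 2, Col28a1 and Col6a6, had no single-symbol probe set and were not analysed here.

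Every sample came from thymi of female C57BL/6J mice aged 6 to 8 weeks, from which blood cells carrying the surface protein CD45 had been depleted with magnetic beads. Untreated mice had no damage, and the other mice were taken at day 4 or day 7 after SL-TBI (read here as sublethal total body irradiation) of 550 cGy. Each group had 3 samples, and each sample was run on 1 Affymetrix mouse expression array, which reads the 3-prime part of a transcript. The labels say that cells they call ECs were pooled from several mice, without explaining the abbreviation or saying whether the samples of a group were separate pools, so the p-values measure the spread between these samples, which may be technical.

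Collagen chains wind into triple helices inside the cell, are secreted, trimmed and then built into fibrils or networks. Fibrillar collagens give connective tissue its tensile strength, type IV collagen forms the mesh of basement membranes under epithelium and around vessels, and FACIT collagens tie fibrils to their surroundings. In the thymus, mesenchymal cells of the capsule, septa and vessel walls are a main source of fibrillar collagen, while basement membrane is laid down by epithelium and endothelium as well.

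The depleted preparations were mixtures whose makeup differed between the groups. Averaged over the tested genes of each marker list, thymocyte markers (11 genes) lay between 9.09 and 9.44 in untreated samples, between 3.17 and 3.51 at day 4 and between 6.57 and 6.68 at day 7 (log2 GCRMA values, as throughout). Fibroblast markers (11 genes) lay between 9.65 and 10.13 in untreated samples, between 10.58 and 11.20 at day 4 and between 10.30 and 10.61 at day 7. Untreated replicate 3 stood apart from the other untreated samples, with an endothelium list mean of 6.33 against 4.47 and 4.67, and a medullary epithelium list mean of 7.51 against 8.45 and 8.70. In bulk samples such as these, fewer cells of a type and less RNA per cell cannot be told apart, and the fall in thymocyte transcripts cannot be told apart from the groups. The 3-prime minus 5-prime value of the Actb control probe sets, which grows as the RNA loses its 5-prime part, was 2.28 ± 0.15 in untreated samples, 3.13 ± 0.17 at day 4 and 2.51 ± 0.21 at day 7 (SD, n = 3 each). For Actb each exact permutation p between groups was 0.1 or 0.2 (two-sided), where 0.1 is the smallest that 3 arrays against 3 allow, and the part of RNA quality in the results below was not tested. The same value for Gapdh was 0.90 ± 0.13 in untreated samples, 1.37 ± 0.24 at day 4 and 0.90 ± 0.21 at day 7.

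A gene was tested when 3 or more of the 9 arrays read 4 or above, which kept 26 of the 42 collagen genes. Of those, 23 were at or above 4 on all 9 arrays. The 16 genes left out included Col2a1, Col9a2, Col9a3, Col10a1, Col11a1 and Col11a2, collagens best known from cartilage, and Col10a1, Col11a1 and Col24a1 stood at the lowest value of the table, 2.27, on every array. The remaining untested genes were Col4a3, Col4a6, Col6a5, Col7a1, Col13a1, Col22a1, Col23a1, Col25a1 and Col26a1. Of the 16, Col4a6 alone passed 4 on any array, with 4.37 on day 7 replicate 3. Of the cartilage and bone markers 2 of 6, Sox9 and Matn1, were tested, and their mean lay between 5.13 and 6.36 in untreated samples. In the test described below Sox9 was higher at day 4 (difference 0.48) and Matn1 was lower at day 7 (difference -1.06). Acan, the main proteoglycan of cartilage, read 2.27 to 2.32.

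Collagen transcripts were mostly higher 4 days after irradiation. Of the 26 tested genes, 21 were higher at day 4 than in untreated samples (80.8%), 1 was lower and 4 did not pass the test (limma, Benjamini-Hochberg adjusted p under 0.05 over all 10937 tested genes). The background was large: 63.2% of all tested genes were called in this comparison, 41.8% as higher and 21.4% as lower. The median collagen difference was 0.95 on the log2 scale, beside 0.20 for all tested genes, and 13 genes were raised at least 2-fold. Samples of the groups did not overlap for 22 of the 26 genes, as for 67.7% of all tested genes. These directions are relative to the deposited normalization: with every array centred on its fibroblast marker mean the median collagen difference was -0.03, with 5 genes higher and 4 lower. Without untreated replicate 3 there were 20 genes higher and 3 lower.

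At day 7 most of the family still read above untreated samples. The count was 18 higher, 2 lower and 6 that did not pass, against a background of 54.1% called (32.1% higher and 22.0% lower), and the median was 0.75 beside 0.09 for all tested genes. Day 7 and untreated samples did not overlap for 20 of the 26, as for 62.4% of all tested genes. Centred on fibroblast markers, the day 7 median was 0.13, with 3 genes higher and 3 lower. The direct comparison of day 7 with day 4 called 27.3% of all tested genes, 9.78% as higher and 17.6% as lower. In it 1 collagen gene was higher, 7 were lower and 18 did not pass, with a median of -0.26 beside -0.10 for all tested genes. Samples of the 2 times did not overlap for 11 genes, as for 51.7% of all tested genes, and centring on fibroblast markers turned the median to 0.10 with 0 genes lower.

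**Figure D1:**
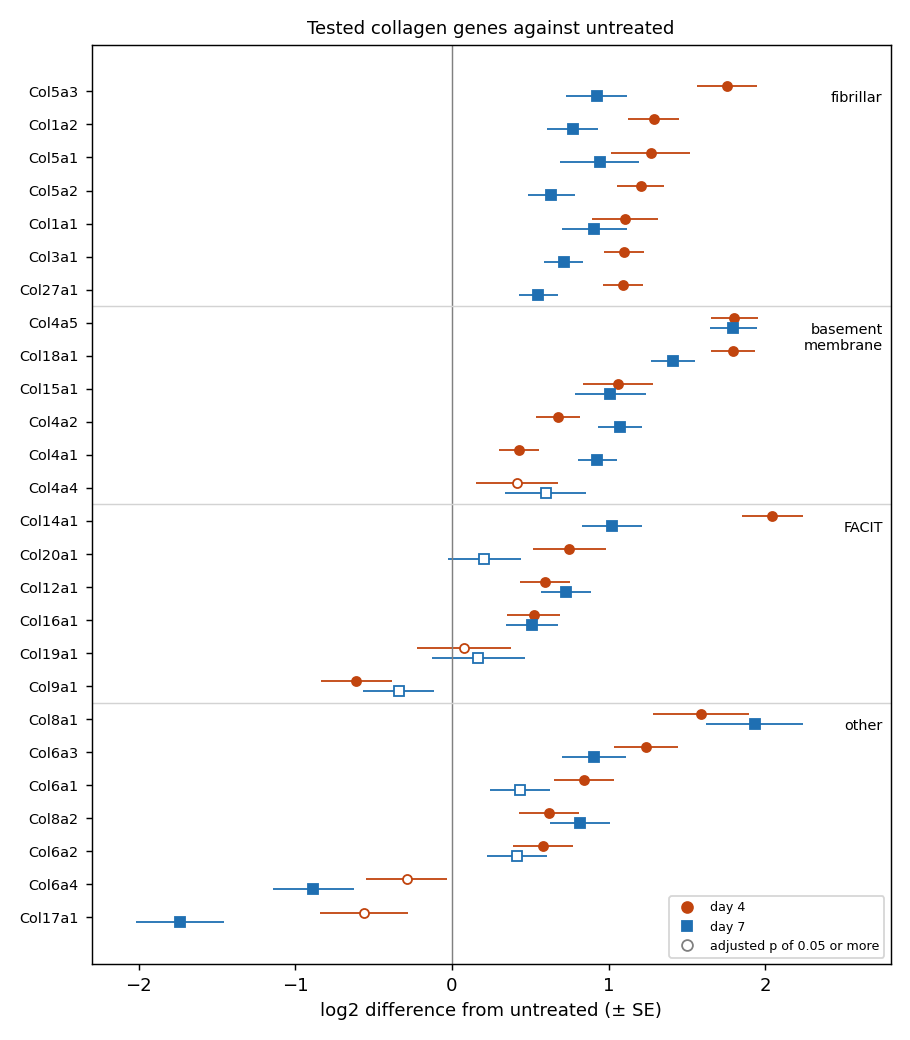
Log2 difference from untreated samples (horizontal axis, bars are the standard error) for the 26 tested collagen genes, by class, at day 4 (circles) and day 7 (squares), with filled symbols for an adjusted p under 0.05. The 7 fibrillar genes all lie right of 0 with day 4 beyond day 7, and Col17a1 lies farthest to the left at day 7. With arrays centred on fibroblast markers, 10 of the 26 differences change sign at day 4 and 7 at day 7.

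The fibrillar genes moved together. All 7 that were tested, of 11, were higher at day 4 (median 1.20) and at day 7 (median 0.77), and 5 of the 7 were lower at day 7 than at day 4 (median -0.52). Among all tested genes 41.8% were higher at day 4, 32.1% were higher at day 7 and 17.6% were lower between the times. Without the Thy1 gene, which thymocytes also express and which was lower at day 4 (difference -2.61), the fibroblast markers used for centring rose more, and all but Col5a3 of the 7 then had a day 4 difference below 0. That alternative was chosen after seeing the data.

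Type I collagen, the main fibril-forming collagen of connective tissue, is built from the products of Col1a1 and Col1a2. Col1a2 read 11.59, 12.08 and 11.78 in untreated samples, 13.10, 12.92 and 13.29 at day 4, and 12.72, 12.71 and 12.33 at day 7. The 3 groups did not overlap, with day 4 highest and untreated samples lowest. The day 4 difference was 1.29 (SE 0.16, adjusted p 0.000162), a 2.44-fold rise, and the day 7 difference was 0.77 (adjusted p 0.00393). Col1a1 read 8.09, 8.62 and 8.11 in untreated samples, 9.21, 9.22 and 9.71 at day 4, and 9.39, 9.33 and 8.84 at day 7. Its day 4 and day 7 values overlapped, and both groups lay above all untreated samples, by 1.11 (SE 0.21, adjusted p 0.00161) and by 0.91 (adjusted p 0.00592). A second Col1a1 probe set gave larger differences of 1.85 at day 4 and 1.32 at day 7.

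The promoter window of Col1a2, the longer-studied of the type I promoters for its CCAAT boxes, is printed from RefSeq (GRCm38.p6, chr6:4505368-4505667, plus strand, 300 bases around the start site) with CCAAT on either strand in capitals.
Col1a2: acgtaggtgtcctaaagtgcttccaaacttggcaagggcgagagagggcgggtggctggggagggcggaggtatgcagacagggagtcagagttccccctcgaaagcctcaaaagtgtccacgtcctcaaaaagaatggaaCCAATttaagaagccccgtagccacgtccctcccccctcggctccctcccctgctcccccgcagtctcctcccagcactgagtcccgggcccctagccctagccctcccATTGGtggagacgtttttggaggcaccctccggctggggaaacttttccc
CCAAT, read on either strand, occurred in 13 of 36 windows of 33 collagen genes (36.1%) and in 37.4% of all 32851 windows. GGGCGG, the letters of a GC box, occurred on either strand in 22 of the 36 (61.1%) and in 35.7% of all windows. These matches describe the letters and name no bound factor.

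Col3a1 encodes type III collagen, which forms thin fibrils together with type I in soft organs, and it lies next to Col5a2 on chromosome 1. It read 13.01, 13.31 and 13.29 in untreated samples, 14.33, 14.16 and 14.42 at day 4, and 13.96, 14.06 and 13.73 at day 7. All day 4 samples lay above all day 7 samples, which lay above all untreated ones. The rise was 2.14-fold at day 4 (difference 1.10, SE 0.13, adjusted p 8.75e-05) and 1.64-fold at day 7 (difference 0.71, adjusted p 0.0015). Its neighbour Col5a2 read 10.65, 10.96 and 10.65 in untreated samples, 11.91, 11.82 and 12.15 at day 4, and 11.57, 11.47 and 11.13 at day 7. The order of the groups was the same as for Col3a1, again without overlap, with differences of 1.20 (SE 0.15, adjusted p 0.000144) at day 4 and 0.63 (adjusted p 0.00664) at day 7.

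Type V collagen starts fibril assembly and sets fibril width, and its chains come from Col5a1, Col5a2 and Col5a3. Col5a3 had the largest day 4 rise of the fibrillar genes: 6.24, 6.39 and 6.18 in untreated samples, 8.11, 7.68 and 8.28 at day 4, and 7.42, 7.34 and 6.81 at day 7. That was a 3.38-fold rise at day 4 (difference 1.76, SE 0.19, adjusted p 7.09e-05) and a 1.90-fold rise at day 7 (difference 0.92, adjusted p 0.00364), with no overlap between any groups. Col5a1 read 8.41, 8.90 and 8.14 in untreated samples, 9.59, 9.49 and 10.18 at day 4, and 9.59, 9.64 and 9.06 at day 7. Its day 4 and day 7 values overlapped, while both lay above untreated samples, by 1.27 (SE 0.25, adjusted p 0.00208) and 0.94 (adjusted p 0.0121). Col27a1, a fibrillar collagen known from cartilage, read 6.63, 6.58 and 6.38 in untreated samples, 7.62, 7.57 and 7.68 at day 4, and 7.33, 7.06 and 6.86 at day 7. It was 2.13-fold higher at day 4 (difference 1.09, SE 0.13, adjusted p 9.95e-05) and 1.47-fold higher at day 7 (difference 0.55, adjusted p 0.00587), in 3 groups that did not overlap.

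Between day 7 and day 4, the fibrillar genes that passed as lower were Col5a3 at -0.83 (SE 0.19, adjusted p 0.014), Col5a2 at -0.57 (adjusted p 0.0229), Col27a1 at -0.54 (adjusted p 0.015), Col1a2 at -0.52 (adjusted p 0.0446) and Col3a1 at -0.39 (adjusted p 0.0491). Col1a1 differed by -0.20 (adjusted p 0.515) and Col5a1 by -0.32 (adjusted p 0.368). The Col1a2 and Col3a1 calls were lost when any 1 of the 6 irradiated arrays was left out, and that of Col1a2 also without untreated replicate 3, with adjusted p up to 0.139 for Col1a2 and 0.153 for Col3a1. Col5a2 lost its call without day 4 replicate 1 or 3 or day 7 replicate 2 or 3 (-0.44 to -0.61, adjusted p up to 0.0713), Col27a1 lost it without day 7 replicate 2 (-0.53, adjusted p 0.0523), and Col5a3 kept it without any 1 array. Over the same groups the fibroblast list had 10 of 11 genes higher and Thy1 lower at day 4 (median 1.27). At day 7 it had 7 higher and Thy1 lower (median 0.66), and between day 7 and day 4 it had 1 higher and 2 lower (median -0.42). The 10 and 7 higher stand beside 41.8% and 32.1% of all tested genes, and the 2 lower (18.2%) are near the background of 17.6%. The part of fibroblast content in the collagen differences was not tested.

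**Figure D2:**
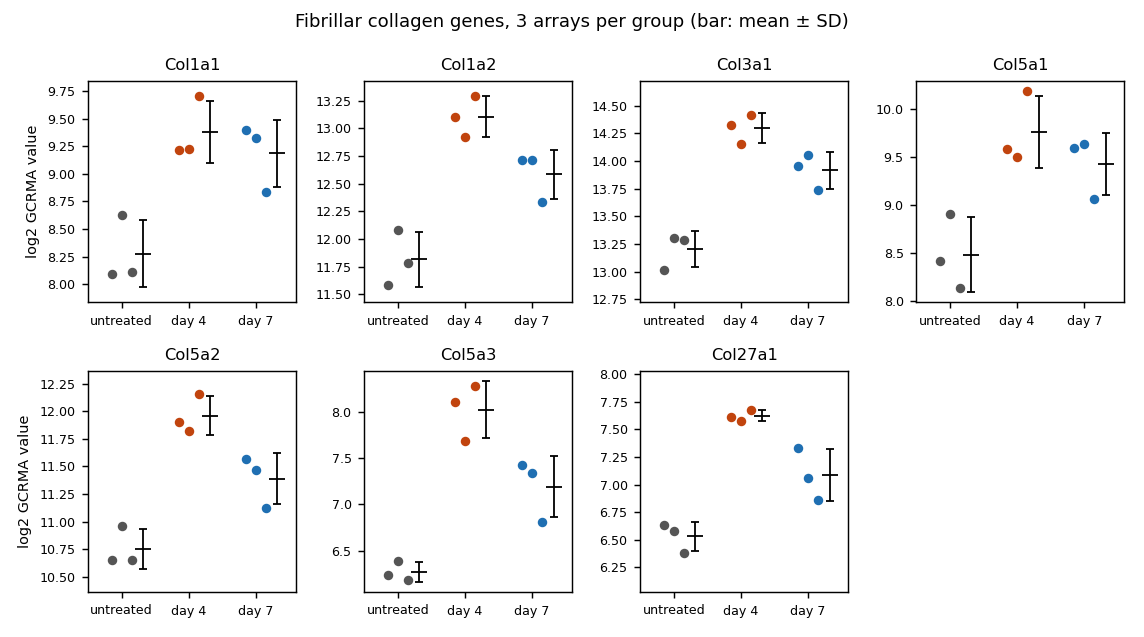
Log2 GCRMA value of each tested fibrillar collagen gene on each array, in untreated samples, at day 4 and at day 7 (points), with the mean and SD of 3 arrays (bars). Irradiated samples lie above untreated samples in all 7 genes, an order that holds in the deposited normalization; centred on fibroblast markers, the day 7 difference of Col27a1 is -0.06.

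Basement membrane genes were mostly higher at both times in the deposited normalization. Of 8 genes 6 were tested, of which 5 were higher at day 4 (83.3%, median 0.87) and 5 at day 7 (83.3%, median 1.04). Among all tested genes 41.8% were higher at day 4 and 32.1% at day 7. Between day 7 and day 4 the median was 0.09 with 1 gene higher (16.7%, beside 9.78% of all tested genes). Over the fibroblast-centred arrays Col4a1 and Col4a2 turned to differences of -0.55 and -0.30 at day 4. The endothelium list (11 tested genes) had 4 genes higher at day 4 (36.4%), which is no more than the 41.8% of all tested genes. At day 7 all 11 were higher, beside 32.1% of all tested genes. Its array means lay between 4.47 and 6.33 in untreated samples, between 5.43 and 6.26 at day 4 and between 7.74 and 7.89 at day 7. Pericyte and smooth muscle markers (7 tested) averaged 7.58 to 7.93 in untreated samples, 7.47 to 7.82 at day 4 and 8.66 to 9.54 at day 7. Their genes did not move as 1 at day 4: Abcc9 and Kcnj8 were higher and Acta2, Rgs5 and Tagln lower (differences -2.22 to 2.08). At day 7 Abcc9, Kcnj8 and Mcam were higher than in untreated samples (42.9%, beside 32.1% of all tested genes) and 4 did not pass. Thymic epithelium markers (10 tested) lay between 11.49 and 11.57 in untreated samples, between 11.97 and 12.08 at day 4 and between 11.92 and 11.99 at day 7. At day 4, 10 of the 11 endothelium genes had a positive difference (median 0.99). Day 4 and untreated samples overlapped for every gene of the list, whereas 67.7% of all tested genes did not overlap. By list mean, untreated replicate 3 (6.33) lay above every day 4 sample. Untreated replicates 1 and 2 (4.47 and 4.67) lay below every day 4 sample. Pecam1, a defining endothelial gene, was the gene of the list with a negative day 4 difference (-1.11), which did not pass. It read 4.06, 2.84 and 5.20 in untreated samples, 3.10, 2.69 and 2.98 at day 4 and 5.17, 5.30 and 6.05 at day 7. All its day 4 values and untreated replicate 2 lay below 4, so this difference is limited by signal near the floor. The part of these cell types in the basement membrane collagen values was not tested.

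Col4a1 and Col4a2 encode the chains of the type IV collagen found in nearly all basement membranes. They lie on opposite strands of chromosome 8, with RefSeq start sites 21 bases apart, and their promoter windows share 78 bases. The distance is given without its direction, so it does not show whether the transcripts overlap at their starts. The Col4a2 window (GRCm38.p6, chr8:11312555-11312854, plus strand) is printed with the bases that also belong to the Col4a1 window in capitals. These bases form the downstream end of the Col4a2 window, so they include bases past its start site.
Col4a2: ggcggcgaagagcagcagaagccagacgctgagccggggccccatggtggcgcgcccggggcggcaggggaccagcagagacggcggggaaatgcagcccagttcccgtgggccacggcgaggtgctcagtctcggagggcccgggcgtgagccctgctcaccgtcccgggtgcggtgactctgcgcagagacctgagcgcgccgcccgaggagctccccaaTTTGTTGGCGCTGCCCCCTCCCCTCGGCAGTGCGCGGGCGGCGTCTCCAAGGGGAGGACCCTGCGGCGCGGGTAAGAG

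Both genes of the pair were higher at each time in the deposited normalization. Col4a1 read 10.86, 11.21 and 11.07 in untreated samples, 11.52, 11.36 and 11.55 at day 4, and 12.10, 12.06 and 11.77 at day 7. The groups did not overlap, with day 7 highest: 1.34-fold above untreated samples at day 4 (difference 0.43, SE 0.13, adjusted p 0.0155) and 1.90-fold at day 7 (difference 0.93, adjusted p 0.000406). Col4a2 read 8.89, 9.18 and 9.08 in untreated samples, 9.78, 9.59 and 9.81 at day 4, and 10.32, 10.20 and 9.84 at day 7. It stood in the same order, with no overlap, and was 1.60-fold higher at day 4 (difference 0.68, SE 0.14, adjusted p 0.00255) and 2.10-fold higher at day 7 (difference 1.07, adjusted p 0.000338). Between day 7 and day 4 Col4a1 was higher by 0.50 (SE 0.13, adjusted p 0.0192), while Col4a2 differed by 0.39 (adjusted p 0.065).

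The later rise of Col4a1 depended on the probe set. The second probe set of the gene read 8.55, 9.09 and 8.70 in untreated samples, 9.56, 9.55 and 9.82 at day 4, and 9.66, 9.36 and 9.16 at day 7, so that day 7 lay below day 4 by 0.25 on average (adjusted p 0.327). Both probe sets were higher than untreated samples at both times. The day 7 against day 4 call of Col4a1 was also lost without day 4 replicate 2, day 7 replicate 1 or day 7 replicate 2 (0.44 to 0.46, adjusted p 0.0659 to 0.0708), and Col4a2 passed without day 7 replicate 3 (0.53, adjusted p 0.0248). At day 4 against untreated, the call of Col4a1 was lost without day 4 replicate 3 (0.39, adjusted p 0.0504) or untreated replicate 1 (0.33, adjusted p 0.0585). When every probe set was fitted on its own, 12 genes of the family had several tested probe sets, and their calls were the same in 12 of 12 at day 4, 12 of 12 at day 7 and 10 of 12 between day 7 and day 4, where those of Col4a1 and Col1a2 differed. In that fit neither Col3a1 probe set passed between the times (adjusted p 0.0561 and 0.151).

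Col4a5 and Col4a4 encode minor type IV chains best known from kidney, where they replace the common chains. Col4a5 read 7.24, 7.67 and 7.64 in untreated samples, 9.36, 9.20 and 9.40 at day 4, and 9.21, 9.17 and 9.56 at day 7. All irradiated samples lay above all untreated ones, 3.49-fold higher at day 4 (difference 1.80, SE 0.15, adjusted p 1.42e-05) and 3.47-fold at day 7 (difference 1.80, adjusted p 4.34e-05), with -0.01 between the times (adjusted p 0.976). Its neighbour on the X chromosome, Col4a6, was untested, and the start sites of that pair lay 1343 bases apart. Col4a4 read 3.82 to 4.31 in untreated samples, 4.27 to 4.54 at day 4 and 4.28 to 5.30 at day 7, and passed in no comparison, though without day 7 replicate 3 its day 4 difference of 0.42 passed (adjusted p 0.0338).

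Col15a1 and Col18a1 encode the multiplexins, collagens with glycan chains that join basement membrane to the tissue beneath, and a fragment of the Col18a1 product is endostatin, an inhibitor of vessel growth. Col18a1 read 6.45, 6.96 and 6.62 in untreated samples, 8.54, 8.52 and 8.36 at day 4, and 8.19, 7.92 and 8.15 at day 7. It was 3.47-fold higher at day 4 (difference 1.80, SE 0.14, adjusted p 1.06e-05) and 2.66-fold at day 7 (difference 1.41, adjusted p 9.28e-05). The groups did not overlap, and the difference of -0.38 between day 7 and day 4 did not pass (adjusted p 0.0722; 0.0284 without untreated replicate 2). Col15a1 read 7.20, 7.32 and 7.46 in untreated samples, 8.47, 7.93 and 8.76 at day 4, and 8.71, 8.26 and 8.05 at day 7. The irradiated groups overlapped each other and lay above untreated samples by 1.06 (SE 0.23, adjusted p 0.00301) at day 4 and 1.01 (adjusted p 0.00503) at day 7.

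Of 9 FACIT genes 6 were tested: 4 were higher and 1 lower at day 4 (median 0.56), 3 were higher at day 7 (median 0.36), and between the times 1 was lower (median 0.04). The 4 of 6 higher at day 4 and the 3 of 6 higher at day 7 stand beside 41.8% and 32.1% of all tested genes. The 1 of 6 lower (16.7%) is near the background of 21.4% at day 4 and of 17.6% between the times. Col14a1, whose product binds the surface of type I fibrils, had the largest day 4 rise of the 26 genes in the deposited normalization. It read 8.46, 9.18 and 8.62 in untreated samples, 10.70, 10.62 and 11.08 at day 4, and 9.73, 9.91 and 9.68 at day 7. The groups did not overlap, with a 4.13-fold rise at day 4 (difference 2.05, SE 0.19, adjusted p 2.98e-05), a 2.03-fold rise at day 7 (difference 1.02, adjusted p 0.00223), and a lower value at day 7 than at day 4 (difference -1.02, adjusted p 0.00606). That last difference kept its call without any 1 array.

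Col12a1, the gene of the other fibril-surface collagen of dense tissue, read 7.84, 8.08 and 7.60 in untreated samples, 8.13, 8.68 and 8.49 at day 4, and 8.56, 8.62 and 8.54 at day 7. Both irradiated groups lay above untreated samples, by 0.59 (SE 0.16, adjusted p 0.0103) at day 4 and 0.73 (adjusted p 0.00463) at day 7. Col16a1 read 6.91, 6.97 and 6.30 in untreated samples, 7.11, 7.29 and 7.34 at day 4, and 7.26, 7.29 and 7.16 at day 7. Its untreated samples were the most spread, and its differences of 0.52 (adjusted p 0.0233) and 0.51 (adjusted p 0.0298) were lost without day 4 replicate 2 or 3 in the day 4 comparison (0.50 and 0.48, adjusted p 0.0643 and 0.0702) and without any 1 day 7 array in the day 7 comparison (0.48 to 0.55, adjusted p 0.0537 to 0.0824). Without untreated replicate 3, the lowest of the untreated samples, the Col16a1 differences were 0.31 at day 4 and 0.30 at day 7. Centred on fibroblast markers, Col12a1 and Col16a1 had day 4 differences of -0.39 and -0.46.

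Col9a1, a chain of the FACIT collagen of cartilage, was the single gene called lower at day 4. It read 5.50, 5.88 and 5.43 in untreated samples, 5.15, 5.15 and 4.68 at day 4, and 4.78, 5.43 and 5.58 at day 7. Its day 4 samples lay below all untreated samples (difference -0.61, SE 0.23, adjusted p 0.041), while day 7 overlapped them (-0.34, adjusted p 0.232). The call was lost without any 1 of the day 4 arrays, without untreated replicate 1 or 2, or without day 7 replicate 2 (-0.45 to -0.69, adjusted p up to 0.138). Col20a1 read 3.86, 4.22 and 4.13 in untreated samples, 5.37, 4.30 and 4.80 at day 4, and 4.37, 4.23 and 4.24 at day 7, near the level set for testing. It was higher at day 4 (0.75, SE 0.23, adjusted p 0.0192) but not without untreated replicate 1 (0.64, adjusted p 0.0681). With its highest sample, day 4 replicate 1, left out the difference was 0.48, and without day 4 replicate 2 it was lower at day 7 than at day 4 (-0.80, adjusted p 0.0233). Col19a1, the chromosomal neighbour of Col9a1, read 4.66 to 5.34 in untreated samples, 4.46 to 5.80 at day 4 and 5.16 to 5.24 at day 7, and passed in no comparison.

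The 14 genes of other kinds held both genes called lower at day 7. Of 7 tested, 5 were higher at day 4 (median 0.62), 3 were higher and 2 lower at day 7 (median 0.43), and 1 was lower between day 7 and day 4 (median -0.33). The 5 of 7 higher at day 4 (71.4%) stand beside 41.8% of all tested genes, and the 3 of 7 higher at day 7 (42.9%) are near the background of 32.1%. The 2 of 7 lower at day 7 (28.6%) and 1 of 7 lower between the times (14.3%) are near the backgrounds of 22.0% and 17.6%. Type VI collagen forms beaded filaments that link cells to fibrils, and its main chains come from Col6a1, Col6a2 and Col6a3. Col6a3 read 9.23, 9.55 and 9.40 in untreated samples, 10.79, 10.23 and 10.87 at day 4, and 10.48, 10.49 and 9.93 at day 7. Every irradiated sample lay above every untreated one. It was 2.36-fold higher at day 4 (difference 1.24, SE 0.20, adjusted p 0.000734) and 1.88-fold at day 7 (difference 0.91, adjusted p 0.0053).

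Col6a1 and Col6a2, neighbours on chromosome 10, passed at day 4 and did not pass at day 7. Col6a1 read 9.92, 10.35 and 9.80 in untreated samples, 10.76, 10.69 and 11.15 at day 4, and 10.70, 10.48 and 10.19 at day 7. Its day 4 difference was 0.84 (SE 0.19, adjusted p 0.00416) and its day 7 difference 0.43 (adjusted p 0.0835), with -0.41 between the times (adjusted p 0.139). Col6a2 read 9.75, 10.16 and 9.54 in untreated samples, 10.33, 10.24 and 10.63 at day 4, and 10.52, 10.19 and 10.01 at day 7. Its differences were 0.58 (SE 0.19, adjusted p 0.0249) at day 4 and 0.42 (adjusted p 0.0928) at day 7, with -0.16 between the times (adjusted p 0.551). The day 7 values of both overlapped those of untreated samples, in which replicate 2 was highest, and without that array both passed at day 7 (0.59 each, adjusted p 0.0242 and 0.0224). The day 4 call of Col6a2 was lost without untreated replicate 1 or 3 or day 4 replicate 3 (0.44 to 0.55, adjusted p 0.0694 to 0.0875), and on fibroblast-centred arrays Col6a1 and Col6a2 had day 4 differences of -0.13 and -0.40.

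Col6a4, which in the mouse can take the place of the Col6a3 chain, was called lower at day 7. It read 6.06, 5.99 and 5.12 in untreated samples, 5.40, 5.35 and 5.56 at day 4, and 4.53, 5.23 and 4.76 at day 7. Its day 7 difference was -0.88 (SE 0.26, adjusted p 0.0181), although the groups overlapped through untreated replicate 3. The day 7 call was lost without untreated replicate 1 or 2 or day 7 replicate 1 or 3 (-0.72 to -0.84, adjusted p 0.0543 to 0.0683). Without untreated replicate 3 the gene also passed as lower at day 4 (-0.59, adjusted p 0.0259) and between day 7 and day 4 (-0.60, adjusted p 0.0299), where it had not with all arrays (-0.29, adjusted p 0.353, and -0.60, adjusted p 0.118).

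Type VIII collagen, a short-chain collagen of vessel walls, is built from the products of Col8a1 and Col8a2. Col8a1 read 5.20, 5.54 and 4.96 in untreated samples, 6.35, 6.60 and 7.53 at day 4, and 7.42, 6.77 and 7.32 at day 7. All irradiated samples lay above all untreated ones, and the 2 times overlapped. It was 3.01-fold higher at day 4 (difference 1.59, SE 0.31, adjusted p 0.00178) and 3.82-fold at day 7 (difference 1.93, adjusted p 0.000909), the largest day 7 rise among the 26 genes in the deposited normalization. Col8a2 read 4.99, 5.45 and 5.21 in untreated samples, 5.81, 5.49 and 6.22 at day 4, and 5.84, 6.14 and 6.12 at day 7. Every irradiated sample lay above every untreated one, by 0.62 (SE 0.19, adjusted p 0.019) at day 4 and 0.82 (adjusted p 0.00652) at day 7, and the day 4 call was lost without day 4 replicate 3 (0.43, adjusted p 0.0601) or untreated replicate 1 (0.51, adjusted p 0.0704). Neither gene passed between day 7 and day 4 (0.34, adjusted p 0.436, for Col8a1 and 0.19, adjusted p 0.479, for Col8a2).

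Col17a1 had the deepest fall of the family at day 7. It encodes a transmembrane collagen of the hemidesmosome, which anchors basal epithelial cells to the basement membrane. Its RefSeq promoter window (GRCm38.p6, chr19:47691993-47692292, minus strand) is printed because its course was opposite to that of most members, with TATAAA in capitals.
Col17a1: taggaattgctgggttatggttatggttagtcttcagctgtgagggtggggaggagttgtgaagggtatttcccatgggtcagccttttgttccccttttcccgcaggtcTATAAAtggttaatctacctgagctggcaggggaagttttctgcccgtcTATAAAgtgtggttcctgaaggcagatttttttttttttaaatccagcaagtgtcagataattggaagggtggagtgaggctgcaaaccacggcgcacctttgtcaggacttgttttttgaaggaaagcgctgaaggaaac
TATAAA, read on either strand, occurred in 5 of the 36 collagen windows (13.9%) and in 13.6% of all windows. No use of these letters was measured.

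Col17a1 read 6.12, 6.04 and 4.99 in untreated samples, 4.996, 5.24 and 5.24 at day 4, and 4.26, 3.96 and 3.73 at day 7. Every day 7 sample lay below every other sample, and untreated replicate 3 lay with the day 4 samples. At day 7 it was 3.33-fold lower than in untreated samples (difference -1.74, SE 0.28, adjusted p 0.000941) and lower than at day 4 (difference -1.18, adjusted p 0.0152). Of the 3 day 7 arrays 1 read above 4, the level set for testing, so the size of both differences is limited by signal near the floor. The day 7 against day 4 call was lost without day 4 replicate 2, day 7 replicate 2 or day 7 replicate 3 (-1.05 to -1.16, adjusted p 0.0518 to 0.055). The day 4 difference was -0.56 (adjusted p 0.107) with all arrays and -0.92 (adjusted p 0.00142) without untreated replicate 3. Medullary epithelium markers (8 tested) moved in the same direction, with 0 higher and 4 lower at day 4 and 0 higher and 8 lower at day 7. Among all tested genes 21.4% were lower at day 4 and 22.0% at day 7. Their array means lay between 7.51 and 8.70 in untreated samples, between 7.30 and 7.69 at day 4 and between 6.58 and 6.74 at day 7. Among them Krt14, a keratin of basal epithelium, read 10.25, 10.60 and 9.74 in untreated samples, 9.30, 9.57 and 9.25 at day 4, and 9.21, 9.10 and 8.84 at day 7. It was called lower at both times but not between day 7 and day 4. Krt5, a keratin on the thymic epithelium list, went the other way and was called higher than in untreated samples at both times. Between day 7 and day 4 Krt5 was called lower. The part of medullary epithelium in the Col17a1 fall was not tested.

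**Figure D3:**
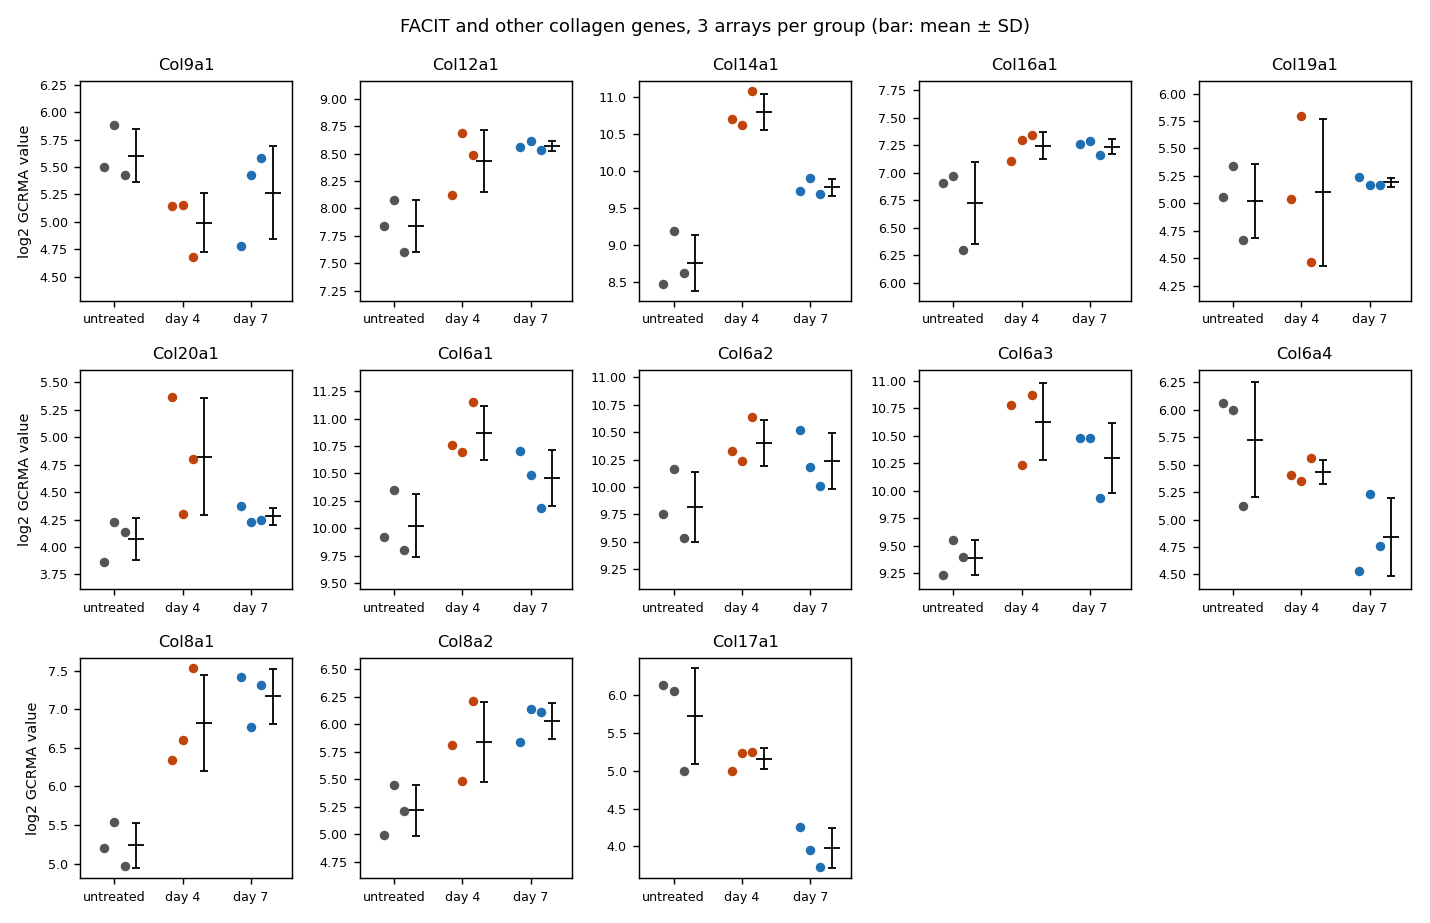
Log2 GCRMA value of each tested FACIT collagen gene and collagen gene of other kinds on each array, in untreated samples, at day 4 and at day 7 (points), with the mean and SD of 3 arrays (bars). Col14a1 peaks at day 4, Col8a1 is above untreated samples at both times, and Col17a1 is lowest at day 7. Centred on fibroblast markers, the day 4 differences of Col6a1, Col6a2, Col8a2, Col12a1, Col16a1, Col19a1 and Col20a1 turn from positive to negative. Those of Col6a4, Col9a1 and Col17a1 are negative with and without this centring.

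The genes that make, process, bind and break down collagen were read from lists of 56 genes, of which 51 had a probe set and 40 were tested. At day 4, 33 of the 40 were higher (82.5%) and 0 lower, with a median of 1.12, in the deposited normalization, beside 41.8% higher and 21.4% lower among all tested genes. The background for the lists that follow is the same at day 4, 32.1% higher at day 7, and 9.78% higher and 17.6% lower between the times. Of 19 tested folding and modification genes, 16 were higher at day 4 (84.2%) and 13 at day 7 (68.4%). Plod2, which hydroxylates lysines of the chain ends for cross-linking, read 4.99, 5.03 and 5.40 in untreated samples, 7.21, 7.29 and 7.45 at day 4, and 6.77, 7.04 and 6.68 at day 7. It was higher by 2.17 at day 4 (adjusted p 3.96e-06) and by 1.69 at day 7 (adjusted p 4.64e-05). Plod1, which hydroxylates lysines of the helix, was higher by 1.92 at day 4 (adjusted p 4.68e-05) and by 1.13 at day 7 (adjusted p 0.00147), and P3h4, a member of a hydroxylation complex, by 1.56 (adjusted p 2.7e-05) and 1.71 (adjusted p 4.84e-05). Plod1, Plod2 and Plod3 were the 3 genes of this list that were lower at day 7 than at day 4 (15.8%, near the background).

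All 3 tested procollagen processing genes and all 3 tested cross-linking genes were higher at both times in the deposited normalization. Bmp1, the protease that removes the C-terminal propeptide, read 6.10, 6.50 and 6.07 in untreated samples, 7.97, 8.03 and 8.31 at day 4, and 7.16, 7.02 and 6.57 at day 7, and was higher by 1.88 at day 4 (adjusted p 3.23e-05) and by 0.70 at day 7 (adjusted p 0.0105). Its enhancers Pcolce2 and Pcolce were higher by 2.02 (adjusted p 0.000363) and 1.05 (adjusted p 0.00196) at day 4. Lox, the oxidase that starts cross-links, was higher by 1.72 at day 4 (adjusted p 3.15e-05) and 1.06 at day 7 (adjusted p 0.000815). The related Loxl1 and Loxl3 were higher by 2.17 (adjusted p 0.000136) and 1.31 (adjusted p 0.00033) at day 4. Between day 7 and day 4, Bmp1 (-1.19, adjusted p 0.00234), Pcolce2 (-0.96, adjusted p 0.0412), Lox (-0.66, adjusted p 0.0185) and Loxl3 (-0.71, adjusted p 0.024) were lower.

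Of 6 tested collagen receptor genes, 4 were higher at day 4 (66.7%) and 6 at day 7. Ddr1, a collagen-binding receptor kinase of epithelium, was higher by 1.19 at day 4 (adjusted p 3.71e-05) and by 0.90 at day 7 (adjusted p 0.000335). Itga1, the alpha chain of an integrin that binds type IV collagen, read 6.78, 6.42 and 6.67 in untreated samples, 6.69, 6.72 and 6.51 at day 4, and 7.54, 7.49 and 7.65 at day 7. Its day 7 samples lay above all others, by 0.93 over untreated samples (adjusted p 0.000243) and 0.92 over day 4 (adjusted p 0.000901), and its beta chain gene Itgb1 was higher by 0.89 (adjusted p 0.000215) and 0.66 (adjusted p 0.00285). Ddr2 and Mrc2, a receptor kinase for fibrillar collagen and an uptake receptor for collagen, were lower at day 7 than at day 4 (differences -0.74, adjusted p 0.0477, and -0.83, adjusted p 0.0487).

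Of 9 tested genes of collagen degradation and its inhibitors, 7 were higher at day 4 (77.8%) and 6 at day 7 (66.7%), and between the times 2 were higher (22.2%) and 6 lower (66.7%). Ctsk, a cysteine protease that cuts the collagen helix, read 5.93, 6.72 and 6.33 in untreated samples, 9.20, 9.02 and 9.64 at day 4, and 8.24, 8.24 and 7.86 at day 7. It was higher by 2.96 at day 4 (adjusted p 9e-06) and by 1.79 at day 7 (adjusted p 0.00028), and lower at day 7 than at day 4 (difference -1.17, adjusted p 0.00644). Mmp2, a gelatinase, was higher by 2.34 at day 4 (adjusted p 2.32e-06) and by 1.42 at day 7 (adjusted p 8.84e-05). Timp4, an inhibitor of such proteases, read 3.57, 4.45 and 4.41 in untreated samples, 3.73, 4.20 and 3.77 at day 4, and 6.74, 6.56 and 6.58 at day 7, so that only its day 7 samples stood above the others, by 2.49 over untreated samples (adjusted p 6.86e-05) and 2.73 over day 4 (adjusted p 0.000103).

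**Figure D4:**
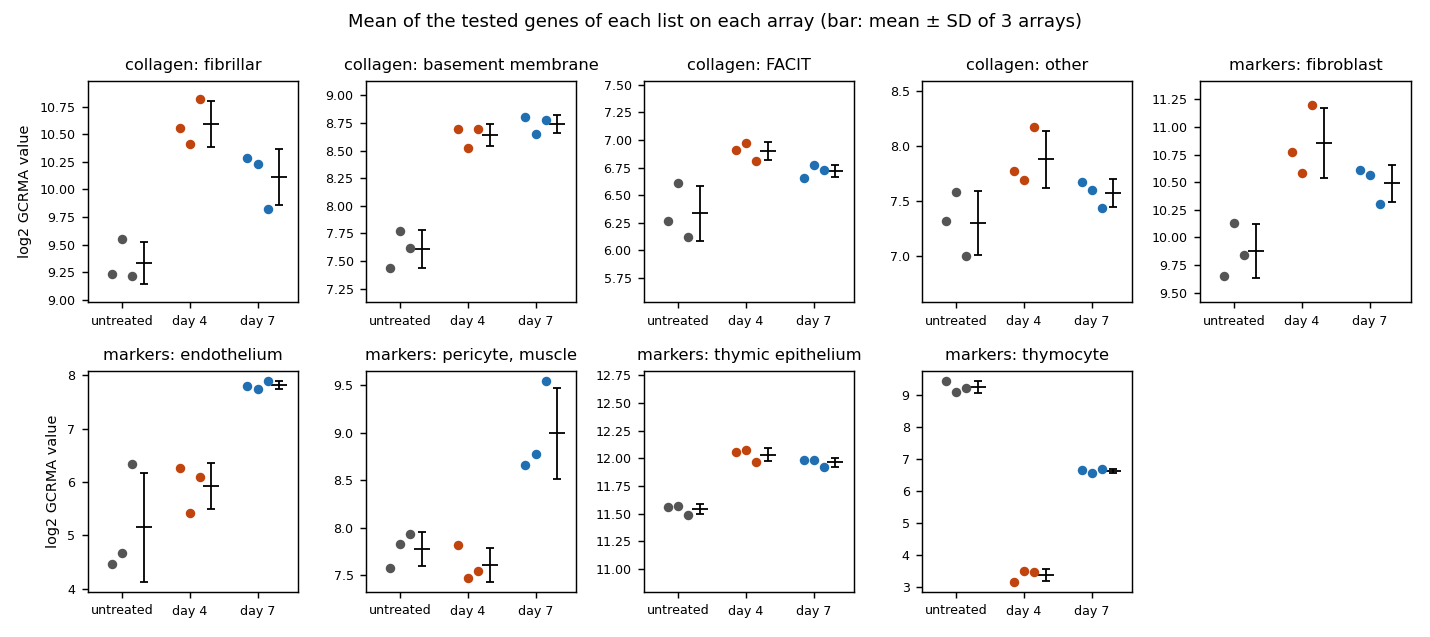
Mean log2 GCRMA value of the tested genes of each collagen class and of 5 marker lists on each array (points), in untreated samples, at day 4 and at day 7, with the mean and SD of 3 arrays (bars). Fibrillar collagens and fibroblast markers are highest at day 4, endothelium and pericyte and smooth muscle markers at day 7, and thymocyte markers in untreated samples; centred on fibroblast markers, the family's day 4 median becomes -0.03.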

How the data were processed

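Transcripts of CD45-depleted thymus cells were measured on 9 one-colour arrays, 3 in each of 3 groups. The deposited table holds 1 log2 value per probe set and array, made by the authors with GCRMA per the submitters' processing notes. GCRMA corrects the background by probe sequence, normalizes between arrays and summarises probes; its version is not given in the sources used here, and base 2 of the log was inferred from their range. On each array 31.4% to 32.8% of values lay at the floor of 2.27, which compresses differences there. Of 45101 probe sets, 34945 had 1 gene symbol in the platform annotation, 932 several and 9160 none, besides 64 controls.

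The probe set with the highest mean was kept per gene, and genes at 4 or more on at least 3 arrays were fitted with limma 3.58.1 (lmFit, eBayes; R 4.3.3), all 9 arrays in 1 model, with Benjamini-Hochberg adjustment over 10937 genes at 0.05. Values are log2 means, each difference has its standard error (SE), and precision is limited by having 3 arrays per group. Actb and Gapdh control values were compared with exact permutation tests (scipy 1.17.1). In simulated data, 70.5% of 200 genes changed by a log2 difference of 1 and 95.5% of those changed by 2 were recovered in the day 4 comparison. There were 12 and 7 false calls. The simulation changed 200 of 10937 genes, whereas 63.2% were called in the real day 4 comparison, so its rates do not carry over to these data. Same-numbered samples did not pair (9 correlations, -0.12 to 0.18, of which 3 were over 0.1).

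All members are accounted for. Values on every array are given for members past the threshold, up to 6 per class by F-test adjusted p, and for members of a named complex. Of each pathway list up to 3 genes with the smallest F-test adjusted p are named, and genes named beyond these were chosen after their values were seen. The members and lists were chosen with earlier results of these data known. The alternatives covered the filter, the probe set per gene, variance trend, array weights, quantile normalization, 3 centrings, a replicate block and each array left out. Promoter windows are RefSeq's (GRCm38.p6). Plots used Python 3.11 and matplotlib 3.10.9.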

Additional observations from a re-analysis of the deposited data

Results flagged for a closer look

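The test of day 7 against day 4 compares the irradiation response at the 2 times, since both are set against the same untreated samples. Of the 26 tested collagen genes 8 passed it (30.8%), near the 27.3% of all tested genes. Col4a1 was higher at day 7 than at day 4, by 0.50. The other 7 were lower at day 7 than at day 4: Col1a2 at -0.52, Col3a1 at -0.39, Col5a2 at -0.57, Col5a3 at -0.83, Col14a1 at -1.02, Col17a1 at -1.18 and Col27a1 at -0.54. Of these 7, Col17a1 was farther from untreated samples at day 7 (-1.74) than at day 4 (-0.56), and the other 6 stood above untreated samples at both times in the deposited normalization. The calls of Col4a1, Col1a2, Col3a1, Col5a2, Col17a1 and Col27a1 were each lost when certain single arrays were left out, and the second probe set of Col4a1 gave -0.25.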

How the results depend on the processing

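Centring on a marker list moved the counts of genes higher at day 4 and at day 7 more than the other alternatives did. The centrings are given in the order fibroblast markers, that list without Thy1 (an alternative chosen after seeing the data) and thymic epithelium markers. At day 4 against untreated, the 21 genes higher became 5, 1 and 12, the 1 gene lower became 4, 11 and 3, and the median of 0.95 became -0.026, -0.38 and 0.46. At day 7 against untreated, the 18 genes higher became 3, 2 and 7, the 2 lower became 3 under each centring, and the median of 0.75 became 0.13, -0.066 and 0.33. At day 7 against day 4, the 1 gene higher became 2, 3 and 2, the 7 lower became 0 and 0 under the fibroblast centrings, and the median of -0.26 became 0.10 and 0.26 under them. The centrings also moved the median of all tested genes, by -0.98, -1.34 and -0.49 at day 4, by -0.62, -0.82 and -0.42 at day 7 and by 0.36, 0.52 and 0.07 between the times. Higher genes made up 66.1%, 59.3% and 35.8% of all calls in the 3 comparisons. Under the first centring that share was 6.63%, 11.2% and 80.7%, under the second 2.47%, 5.65% and 90.2%, and under the third 26.9%, 20.2% and 47.3%, while between the times it was 47.5% centred on all tested genes and 46.1% after quantile normalization.

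Differences called before or after the change turned sign in these cases. Centred on fibroblast markers, the day 4 differences were -0.55 for Col4a1, -0.30 for Col4a2, -0.13 for Col6a1, -0.40 for Col6a2, -0.36 for Col8a2, -0.39 for Col12a1, -0.46 for Col16a1, -0.90 for Col19a1 and -0.23 for Col20a1, and the day 7 differences were -0.11 for Col16a1 and -0.064 for Col27a1. Without Thy1 in that list, the day 4 differences were -0.23 for Col1a1, -0.048 for Col1a2, -0.24 for Col3a1, -0.91 for Col4a1, -0.66 for Col4a2, -0.92 for Col4a4, -0.069 for Col5a1, -0.13 for Col5a2, -0.49 for Col6a1, -0.76 for Col6a2, -0.10 for Col6a3, -0.72 for Col8a2, -0.74 for Col12a1, -0.28 for Col15a1, -0.82 for Col16a1, -1.26 for Col19a1, -0.59 for Col20a1 and -0.25 for Col27a1. The day 7 differences were then -0.046 for Col1a2, -0.10 for Col3a1, -0.18 for Col5a2, -0.00022 for Col8a2, -0.087 for Col12a1, -0.30 for Col16a1 and -0.26 for Col27a1, and between the times they were 0.0028 for Col1a2 and 0.14 for Col3a1. Centred on thymic epithelium markers, Col4a1 was at -0.066 at day 4. With the lowest passing probe set, Col4a1 was at -0.25 between day 7 and day 4.

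With no filter on dim genes, which tests 18193 genes and all 42 members, the medians were 0.42, 0.47 and -0.0039 in the 3 comparisons, 0 genes were lower at day 4, 1 at day 7 and 2 between the times. With a level of 6 the medians at day 4 and day 7 were 1.10 and 0.91, and 0 genes were lower at either time. The mean of all probe sets gave 0 genes lower at day 4 and 0 higher between the times, the lowest passing probe set gave 0 higher between the times, and an intensity trend or centring on all tested genes gave 2 higher there. Array weights gave 2 genes lower at day 4, a day 7 median of 0.90 and 2 higher between the times. With each array left out in turn, the counts ranged from 17 to 22 higher and 0 to 3 lower at day 4 (medians 0.82 to 1.06), from 17 to 20 higher and 1 to 2 lower at day 7 (medians 0.68 to 0.88), and from 0 to 2 higher and 2 to 8 lower between the times (medians -0.35 to -0.14). The replicate number as a block, which does not pair these samples, lowered the count of genes lower between the times to 5, with Col1a2 (adjusted p 0.0757) and Col3a1 (adjusted p 0.0875) no longer called, and changed no other call. Where no construction of an alternative shows the cause of a change, the cause was not tested. Signal near the floor limits Col4a4, Col17a1, Col20a1 and the 16 untested genes.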

Other observations

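Further cell type markers were read over the same arrays. Macrophage markers (3 tested of 6) averaged 6.47 in untreated samples, 6.49 at day 4 and 6.42 at day 7. Among them Mertk was higher and Lyz2 lower than in untreated samples at both times. Skeletal muscle markers (2 tested of 5) averaged 5.01, 4.58 and 3.99 in the same order. Mesothelium markers (6 tested) averaged 6.14 to 6.56 in untreated samples, 7.18 to 7.63 at day 4 and 7.71 to 8.27 at day 7. Of the 6 genes 5 were higher at day 4 and 5 at day 7 (83.3% each), beside 41.8% and 32.1% of all tested genes. Markers of dividing cells (5 tested) averaged 9.60 to 10.16 in untreated samples, 4.19 to 4.43 at day 4 and 8.07 to 8.28 at day 7. Leukocyte markers (4 tested) averaged 11.43 to 11.74 in untreated samples, 7.33 to 7.50 at day 4 and 8.90 to 9.16 at day 7. Between day 7 and day 4 Coro1a and Ptprc of this list were higher and Cd52 was lower (difference -1.94). Adipocyte markers (2 tested of 5) averaged 8.28 to 8.70 in untreated samples, 9.23 to 11.15 at day 4, where replicate 1 was the highest, and 9.11 to 10.26 at day 7. The 2 genes did not move as 1. At day 4 Adipoq was higher (difference 3.32) and Fabp4 did not pass (-0.17). Between day 7 and day 4 Fabp4 was higher (1.17) and Adipoq did not pass (-1.67).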
